A study of Mus musculus with 22 samples.

Results

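Between day 3 and day 5 after transduction, cardiac fibroblasts carrying only the lacZ control virus were profiled on 4 arrays, 2 per day, of the 22 arrays in the series. The members were chosen by label alone, as the day 5 lacZ samples set against the day 3 lacZ samples across all genes. The step sets day 5 against day 3 in culture without the reprogramming factors, though the arrays of these days also lay in different rows of 1 slide. All the cultures compared here were cardiac fibroblasts (labelled CF) from CD1 mice labelled aMHC-GFP. Their green fluorescent reporter is driven by the promoter of Myh6, a myosin gene of heart muscle, so it marks heart muscle cells and not fibroblasts. The day 5 lacZ and day 3 lacZ groups received a control retrovirus, lacZ being the bacterial gene for beta-galactosidase. The day 5 MGT and day 3 MGT groups received a retrovirus with Mef2c, Gata4 and Tbx5 on 1 polycistronic transcript, the factors used to turn fibroblasts into induced cardiomyocytes. The lacZ cultures of days 7, 10 and 14 and fibroblasts of day 0, whose labels name no virus, were used for context. Each group had 2 arrays. The labels do not say that the 2 samples of a group came from separate cultures, animals or sorts, and the p-values therefore rest on differences among samples that may be technical alone.

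Fibroblasts taken out of the heart and placed in a dish respond to serum, plastic and the loss of their tissue, and a retrovirus adds an innate antiviral response. Growth factor stimulation switches on immediate early genes within minutes, interferon switches on antiviral genes through the STAT and IRF factors, and stiff plastic drives fibroblasts towards contractile myofibroblasts. A primary heart preparation also carries over macrophages, endothelial cells, cells of the heart's outer layer and pieces of heart muscle cells, whose RNA is read together with that of the fibroblasts. In such a bulk sample fewer cells of a type and less RNA per cell cannot be told apart.

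A level is the log2 intensity of a gene's probe relative to the 75th percentile of its array, so levels of different genes are not compared. A difference is day 5 minus day 3 on that scale. The standard error (SE) comes from a limma fit over all 22 arrays, and a gene passed the test when its Benjamini-Hochberg adjusted p in that fit was under 0.05. The 4 arrays had 54.7% and 51.6% of their spots well above background at day 5, against 64.7% and 62.4% at day 3. The 75th percentile of the processed intensity lay between 1481 and 1693, and no spot was saturated. Replicates lay close together, with a median absolute difference of 0.06 in either group over 17922 genes. Of the genes above background, 318 (2.09%) were apart by more than 1 between the day 5 arrays, against 116 (0.688%) between the day 3 arrays. In this series the second day 14 lacZ array stands apart with a 75th percentile of 729, and it enters the spread shared by the fit. All 8 arrays of days 3 and 5 shared 1 slide. Both day 5 groups lay in its second row and both day 3 groups in its first row, so the row cannot be told apart from the day. On the lacZ arrays 13 genes were above background at day 5 alone and 1288 at day 3 alone. In MGT cultures 42 genes were so at day 5 alone and 476 at day 3 alone. In lacZ cultures 18 were so at day 10 alone and 729 at day 7 alone, and these arrays too lay in the second and the first row of a slide. The part of the row in these counts was not tested. The step of the MGT cultures crosses the same rows of the same slide and is given beside many, though not all, of the gene groups for this reason.

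Of 18055 genes tested, 2540 (14.1%) were higher and 2809 (15.6%) were lower at day 5 than at day 3. The lacZ counts of every gene list below are to be read beside these shares of all genes. By fitted size the falls reached further: 808 genes were lower and 349 were higher by 1 log2 unit or more, and 224 were lower and 47 higher by 2 or more. Of the genes called lower 413 were above background at day 3 alone, and of those called higher 13 were so at day 5 alone. The sizes of these are no measured differences, and the row cannot be told apart from the day in them. Their part in the counts by size was not tested. The median over all genes was 0.01. Of 1007 genes above background on none of the 4 arrays 150 were called higher and 2 lower, and these calls carry no measured level. Among the 14520 genes above background on all 4 arrays 2326 were higher and 2276 lower. Leaving out 1 array of the 4 at a time left 1445 to 1750 genes higher and 1762 to 1870 lower, and fitting the lacZ arrays alone left 1178 and 1477.

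**Figure D1:**
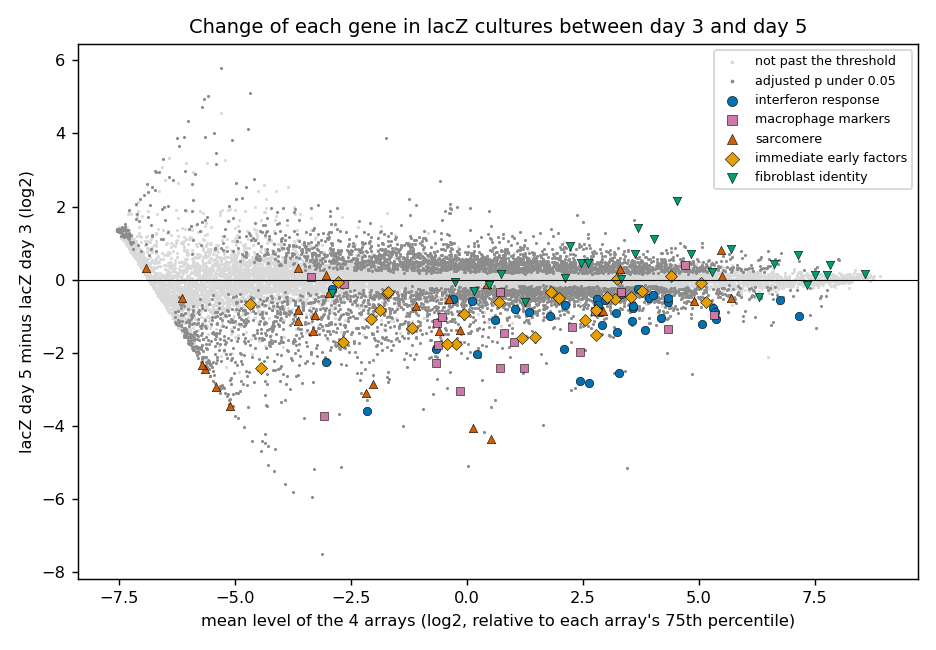
Each point is 1 gene, with its mean level on the 4 arrays (log2, horizontal) and its difference between day 5 and day 3 in lacZ cultures (log2, vertical). Members of 5 lists are coloured. Interferon, macrophage and sarcomere genes lie mostly below 0, the fibroblast identity genes mostly at or above it, and the dense edge at the far left holds genes near background.

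The label of the cells was checked against fibroblast genes. All 26 measured genes of the fibroblast identity list were above background on all 4 arrays, 12 were higher at day 5 and 2 were lower, with a median difference of 0.19. In MGT cultures 4 were higher and 14 lower between the same days, against 13.4% and 14.1% of all genes, with a median of -0.26. Col1a1 and Vim of that list did not pass in lacZ cultures. Col1a1, a chain of type I collagen, stood at 7.59 and 7.55 at day 5 against 7.42 and 7.49 at day 3 (difference 0.12, adjusted p = 0.790). The intermediate filament gene Vim stood at 7.82 and 7.85 against 7.72 and 7.72 (adjusted p = 0.426). Of the transgene factors, endogenous Gata4 was slightly higher in lacZ cultures, with 2.95 and 2.99 at day 5 against 2.72 and 2.62 at day 3 (difference 0.30, adjusted p = 0.0155). That call was lost in 6 of 21 other settings. Tbx5 did not pass (difference 0.22, adjusted p = 0.545). For Mef2c the day 5 lacZ arrays lay apart at -1.74 and -4.13, against -3.89 and -3.88 at day 3 (adjusted p = 0.191).

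Among genes measured on both days, several of the rises that were largest by size belong to the matrix and to secreted proteins. Adamts15, a secreted protease that cleaves proteoglycans (probe at chr9:30707033-30707092 of mm9), had levels of 0.19 and 0.23 on the day 5 arrays, against -3.60 and -3.75 on the day 3 arrays. The day 5 arrays were both far above the day 3 arrays, 14.7-fold (difference 3.88, SE 0.15, adjusted p = 8.30e-09). Day 0 fibroblasts had -4.82 and -4.52, so the gene was low at the start of the culture too. Over 21 other settings the difference of Adamts15 ran from 3.07 to 3.96. Scg2, a granin of secretory granules, followed with 0.71 and 0.84 at day 5 against -1.95 and -1.91 at day 3 (6.50-fold, adjusted p = 8.31e-08). Its level went on to 3.97 and 3.91 on the day 7 lacZ arrays and 5.28 and 5.34 on the day 14 lacZ arrays, which lie on other slides.

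Mgp, matrix Gla protein, an inhibitor of calcification, had 5.63 and 5.59 at day 5 against 3.45 and 3.47 at day 3 (4.43-fold, adjusted p = 9.32e-09). Fmod and Prelp, small leucine-rich proteoglycans that bind collagen, were 4.2-fold and 3.89-fold higher. Fmod had 0.68 and 0.68 against -1.33 and -1.45, and Prelp had 0.62 and 0.60 against -1.35 and -1.35. In each of these the day 5 arrays lay above the day 3 arrays, and replicates lay within 0.2 of each other. Igfbp5, which binds insulin-like growth factors, had 0.63 and 0.62 at day 5 and -1.35 and -1.29 at day 3 (3.85-fold, adjusted p = 8.30e-09). Heyl, a transcription factor downstream of Notch, had 0.77 and 0.81 against -1.23 and -1.18 (3.99-fold, adjusted p = 1.33e-06), and Notch3, a Notch receptor, had 2.50 and 2.50 against 1.15 and 1.09 (2.61-fold). The remaining rises of the 14 largest were Tnfrsf25, Colec11, Megf6 and Agt, between 3.89-fold and 4.64-fold. Agt, the precursor of angiotensin, had an SE of 0.53 and lost its call in 4 of 21 other settings. Cacna1d, Spats1 and Galnt5 complete the 14, and in these the day 5 arrays disagree and 5 to 7 other settings lost the call. Cacna1d stood at -3.36 and -1.0 at day 5 against -3.91 and -4.56 at day 3, so its first day 5 array was near the day 3 arrays. Of the 13 genes above background at day 5 alone, the 4 of largest size were Olfr982, Kcnc2, Tas2r135 and Grid1, an odorant receptor, a potassium channel, a taste receptor and a glutamate receptor subunit. Their day 5 arrays differed from each other by more than 1 log2 unit (Olfr982 had -1.65 and -3.18), and their folds were at least 11.6, 14.1, 7.39 and 6.76.

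The matrix lists held rises above the share of all genes (14.1%) and falls near it (15.6%). Of 33 matrix glycoproteins and proteoglycans 12 (36.4%) were higher and 6 (18.2%) lower (median 0.05). Of 20 collagen chains 6 (30%) were higher and 3 (15%) lower (median 0.20). Type VI collagen rose: Col6a2 had 2.44 and 2.47 at day 5 against 1.27 and 1.28 at day 3 (2.27-fold, adjusted p = 2.09e-06), and Col6a1 had 5.14 and 5.17 against 4.24 and 4.29 (1.85-fold, adjusted p = 1.22e-05). Col3a1, a fibrillar collagen of young scar, rose by less, with 6.83 and 6.85 against 6.31 and 6.53 (adjusted p = 0.0347). Of the fibroblast identity list the genes that rose most were Mgp, the microfibril gene Mfap5 (2.64-fold), the calcium-binding matrix gene Smoc2 (2.15-fold) and Fbln1, fibulin 1 (1.89-fold). Tcf21 and Pdgfra, a transcription factor and a receptor that mark resident heart fibroblasts, had differences of 0.45 and 0.45 (adjusted p = 0.000753 and 0.000255). Postn, periostin, a marker of activated fibroblasts, fell, with 6.08 and 6.04 at day 5 against 6.53 and 6.54 at day 3 (adjusted p = 0.0110).

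Contractile genes of the myofibroblast state were lower. Of 12 smooth muscle and myofibroblast genes 7 fell and 0 rose (median -0.57), while in MGT cultures 4 fell and 1 rose (median -0.17). Cnn1, calponin, had 4.05 and 4.04 at day 5 against 4.86 and 4.87 at day 3 (1.77-fold lower, adjusted p = 2.58e-05). Lmod1, leiomodin, was 2.52-fold lower (adjusted p = 3.33e-05). Acta2, the actin most used as a myofibroblast marker, did not pass, with 8.15 and 8.13 against 8.37 and 8.36 (adjusted p = 0.169), nor did Tagln (adjusted p = 0.415). Among 24 genes of the TGF-beta pathway, the main profibrotic signal, 9 fell and 3 rose (median -0.17). Ccn2, connective tissue growth factor, had 6.84 and 6.88 at day 5 against 8.18 and 8.19 at day 3 (2.50-fold lower, adjusted p = 5.43e-06). Inhba, a subunit of the ligand activin, had 3.72 and 3.75 at day 5 against 4.77 and 4.75 at day 3 (2.04-fold lower, adjusted p = 2.49e-06). Smad6, an inhibitory Smad, rose by 0.87 (adjusted p = 8.50e-05). The related BMP pathway had 5 of 21 genes higher and 4 lower (median -0.14). There Id3, a direct target of BMP signals, rose by 0.82 (adjusted p = 5.58e-05), while the receptor Bmpr1b was 3.35-fold lower (adjusted p = 0.000976) and the ligand Bmp2 had a difference of -1.0 (adjusted p = 0.0142, lost in 4 of 21 other settings).

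**Figure D2:**
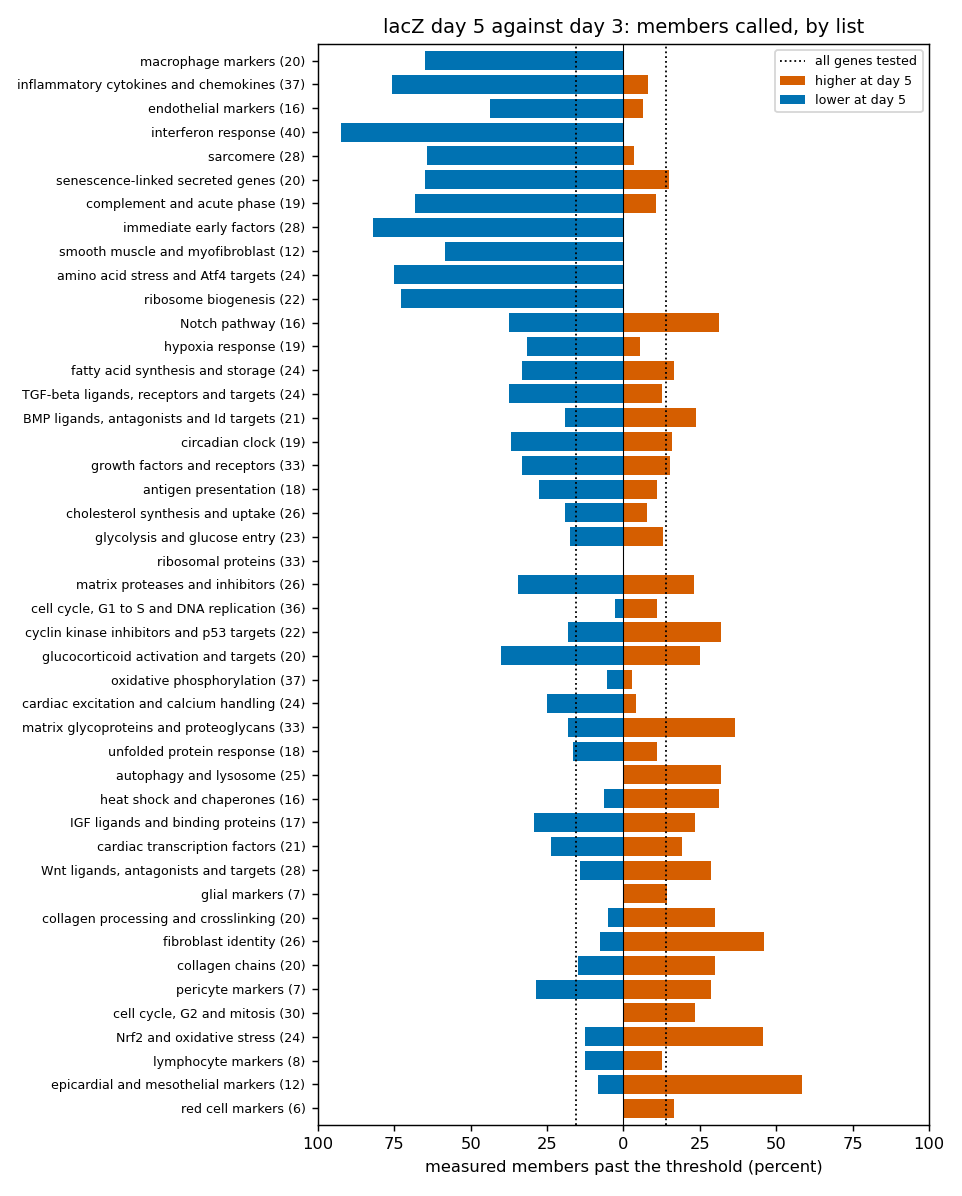
For each of 45 gene lists, the bars give the percent of its measured members (number in brackets) that were higher (right) or lower (left) at day 5 than at day 3 in lacZ cultures, and the dotted lines give the same for all genes tested, 14.1% and 15.6%. The longest bars are those of the interferon and immediate early lists, on the lower side.

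Interferon response genes fell as a list. Of 40 measured members 37 (92.5%) were lower and 0 higher, against 15.6% of all genes lower, and the median difference was -0.89. Mx1, an antiviral GTPase (probe at chr16:97668644-97668703 of mm9), had -4.06 and -3.83 on the day 5 arrays against -0.38 and -0.32 on the day 3 arrays (12.1-fold lower, adjusted p = 1.73e-05), and its difference ran from -3.71 to -2.85 over 21 other settings. Its relative Mx2 had 1.08 and 1.05 against 3.83 and 3.82 (6.77-fold lower), and the chemokine Cxcl10 had 1.24 and 1.2 against 4.01 and 4.07 (7.04-fold lower). Oasl1, of the oligoadenylate synthetase family, had 1.98 and 2.01 against 4.51 and 4.60 (5.91-fold lower). In each of these the arrays of a day lay within 0.3 of each other and the days were well apart. Isg15, a ubiquitin-like modifier, and Irf7, the factor that amplifies the response, had differences of -0.98 and -0.99 (adjusted p = 0.000336 and 0.000922). Irf9, a signalling factor of the response, and the gene Oasl2 did not pass, with differences of -0.26 and -0.51.

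Day 0 fibroblasts stood above both days in the genes shown here. Mx1 had 1.56 and 1.47 at day 0, -0.38 and -0.32 at day 3, -4.06 and -3.83 at day 5 and -1.10 and -1.88 at day 7. Cxcl10 had 5.95 and 5.99 at day 0, 4.01 and 4.07 at day 3, 1.24 and 1.2 at day 5 and 3.14 and 2.72 at day 7. Both were lower at day 5 than on the sampled days around it. Oasl1 had 5.36 and 5.29 at day 0, 4.51 and 4.60 at day 3, 1.98 and 2.01 at day 5, 2.35 and 2.12 at day 7 and 1.43 and 1.22 at day 10, so its day 7 arrays lay near those of day 5. Of the 40 members, 7 had their lowest mean of the 6 sampled days at day 5. Days 0 and 7 lie on other slides, and no test was made of these levels. In MGT cultures 39 members fell between the same days with a median of -1.81. The difference of the steps, lacZ minus MGT, was called higher for 13 members and lower for 0, against 4.14% and 4.05% of all genes, so that in each member that passed this test the MGT step was the larger fall.

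The promoters of the 3 interferon genes with the largest differences that the promoter table holds are shown, since the interferon-stimulated response element is the sequence to which the STAT and IRF factors bind. They are RefSeq sequences of the GRCm38.p6 build in windows of 300 bases around the gene start, read on the gene's strand. Capitals mark GAAANNGAA or its reverse complement.
Cxcl10 (chr5:92348840-92349139, minus strand): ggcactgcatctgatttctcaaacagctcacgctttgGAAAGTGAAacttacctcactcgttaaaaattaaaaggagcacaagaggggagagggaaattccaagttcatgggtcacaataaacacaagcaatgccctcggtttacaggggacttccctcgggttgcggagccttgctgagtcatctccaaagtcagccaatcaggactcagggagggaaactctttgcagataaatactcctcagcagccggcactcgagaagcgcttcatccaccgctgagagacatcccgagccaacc
Oasl1 (chr5:114922990-114923289, plus strand): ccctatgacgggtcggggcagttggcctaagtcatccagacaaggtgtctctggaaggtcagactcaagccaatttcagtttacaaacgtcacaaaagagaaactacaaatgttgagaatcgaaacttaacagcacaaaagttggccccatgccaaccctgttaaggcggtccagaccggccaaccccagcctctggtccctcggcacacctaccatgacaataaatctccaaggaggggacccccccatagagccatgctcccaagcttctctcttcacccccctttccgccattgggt
Oas3 (chr5:120777610-120777909, minus strand): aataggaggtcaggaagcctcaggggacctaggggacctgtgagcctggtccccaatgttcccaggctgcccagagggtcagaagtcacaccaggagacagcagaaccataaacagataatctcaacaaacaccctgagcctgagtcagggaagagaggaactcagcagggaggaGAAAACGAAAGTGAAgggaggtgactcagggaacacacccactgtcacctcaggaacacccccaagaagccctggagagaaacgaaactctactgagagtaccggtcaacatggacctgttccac
The Cxcl10 promoter held 1 match, which begins 213 bases before the gene start. The Oas3 promoter held 2 overlapping matches, of which the nearer begins 69 bases before the start. The Oasl1 promoter held 0 matches to these letters. Oas3 itself had -3.98 and -4.36 at day 5 against -1.88 and -1.94 at day 3 (difference -2.26, adjusted p = 0.00112). Of the 30 interferon list members with a promoter there, 19 had at least 1 promoter with the motif, 20 of 37 promoters, where 8.56% of all 32851 promoters held it. It was held as well by 6 of the 32 promoters of inflammatory list members and 4 of the 27 of immediate early list members. Other motifs were searched on both strands in the same windows. AP-1 (TGACTCA or TGAGTCA) was held by 5.20% of all promoters. By list, it was held by 0 of the 27 promoters of immediate early members, 8 of the 32 of inflammatory members and 7 of the 37 of interferon members. The CCAAT box (CCAAT), the cell cycle homology region (TTTGAA or TTCGAA), E2F sites (TTTGGCGC or TTTCCCGC), sterol response element 1 (TCACCCCAC) and the amino acid response element (TTGCATCA or TGATGCAA) were held by 37.4%, 19.2%, 1.56%, 0.551% and 0.895% of all promoters. A match is a description of the window and not of binding.

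Inflammatory mediators were lower as well. Of 37 cytokines and chemokines measured 28 fell and 3 rose (median -0.96), and in MGT cultures 28 fell and 0 rose (median -1.08). Among the largest falls of all genes were chemokines made mainly by macrophages. Ccl6 (probe at chr11:83401997-83402056 of mm9) had 0.90 and 0.86 at day 5 against 6.04 and 5.98 at day 3 (35.1-fold lower, adjusted p = 3.79e-06). Ccl12 had -2.39 and -2.63 against 2.58 and 2.57 (33.9-fold lower), and Ccl3 had -0.26 and -0.41 against 3.66 and 3.63 (15.8-fold lower). The related Ccl4 was 11.1-fold lower (adjusted p = 4.10e-06). Replicates of Ccl6, Ccl12 and Ccl3 were within 0.3, far less than the gap between the days. Il6 and Ccl2, which fibroblasts also make, fell by less. Il6 had 4.11 and 4.15 against 4.86 and 4.85 (adjusted p = 0.00104), and Ccl2 had 6.92 and 6.92 against 7.86 and 7.89 (adjusted p = 5.66e-05). Cxcl3, a neutrophil attractant, was 11.5-fold lower, and Csf2, the growth factor GM-CSF, was at background at day 5 and at least 2.27-fold lower. The 3 genes called higher were Vcam1, an adhesion molecule (5.64 and 5.59 against 5.09 and 5.14), the alarmin Il33 (-1.97 and -1.92 against -3.04 and -2.85) and Ccl11, which was not above background on any of the 4 arrays. Vcam1 has 2 probes, with differences of 0.14 and 0.50, of which 1 was called higher.

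Genes that belong to myeloid cells and not to fibroblasts moved with these falls. Of 20 measured macrophage markers 13 were lower and 0 higher (median -1.33). The summed level of the list was 6.62 and 6.64 at day 5 against 7.44 and 7.48 at day 3, and 20 and 19 of the 20 were above background on the day 5 arrays. The part of macrophage RNA in the lower inflammatory genes was not tested. The Fc receptor gene Fcgr2b had -3.26 and -3.48 at day 5 against 0.61 and 0.65 at day 3 (16.0-fold lower, adjusted p = 0.000304), and the inhibitory receptor Cd300lf had -2.0 and -1.42 against 2.44 and 2.50 (18-fold lower). C1qa, a subunit of the first complement component, had -0.46 and -0.51 against 1.92 and 1.95 (5.37-fold lower, adjusted p = 0.000662), and the other 2 subunits C1qb and C1qc fell too (-2.28 and -2.41). Adgre1, which encodes the surface antigen most used for mouse macrophages, had 0.22 and 0.08 against 1.89 and 1.84 (adjusted p = 0.00107). By contrast Csf1r, the receptor for the macrophage growth factor, had 3.22 and 3.1 against 3.48 and 3.49 and did not pass (adjusted p = 0.479), nor did Cd68 (difference -1.18, adjusted p = 0.113), or Ptprc (-0.12). Itgam has 3 probes, with differences between -2.26 and 0.39, of which 1 was called lower and the one that stands for the gene did not pass.

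Neutrophil genes were among the falls known only as bounds. S100a9, a calgranulin subunit, was not well above background at day 5 and had 0.61 and 0.67 at day 3, at least 36.9-fold lower (adjusted p = 0.00205). The stefin genes Cstdc5 and Stfa3 were at least 18.4-fold and 13.1-fold lower, though they belong to a family of near copies and a probe may read more than 1 of them. Arg1, the arginase of myeloid cells, was at least 10.8-fold lower. Mpo, the myeloperoxidase of neutrophil granules, was 9.74-fold lower and Mmp8, neutrophil collagenase, 8.67-fold lower. Spp1, osteopontin, a gene of activated macrophages and fibroblasts, had -1.08 and -1.0 against 2.23 and 2.27 (9.82-fold lower, adjusted p = 0.000263).

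Many of the myeloid genes had their lowest level at day 5. Of the 20 macrophage markers 14 had their lowest mean of the 6 sampled days at day 5 in lacZ cultures, where 10.2% of 17946 genes did. Ccl6 had 3.32 and 3.22 at day 0, 6.04 and 5.98 at day 3, 0.90 and 0.86 at day 5, 3.82 and 3.24 at day 7 and 4.27 and 4.65 at day 14. Fcgr2b had 1.42 and 1.25 at day 0, 0.61 and 0.65 at day 3, -3.26 and -3.48 at day 5, -1.02 and -1.05 at day 7 and 2.05 and 2.68 at day 14. The day 10 arrays of Fcgr2b lay apart at -1.03 and 1.52. In MGT cultures 10 macrophage markers fell and 0 rose between day 3 and day 5 (median -0.99), and no marker passed the test of the difference between the steps.

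**Figure D3:**
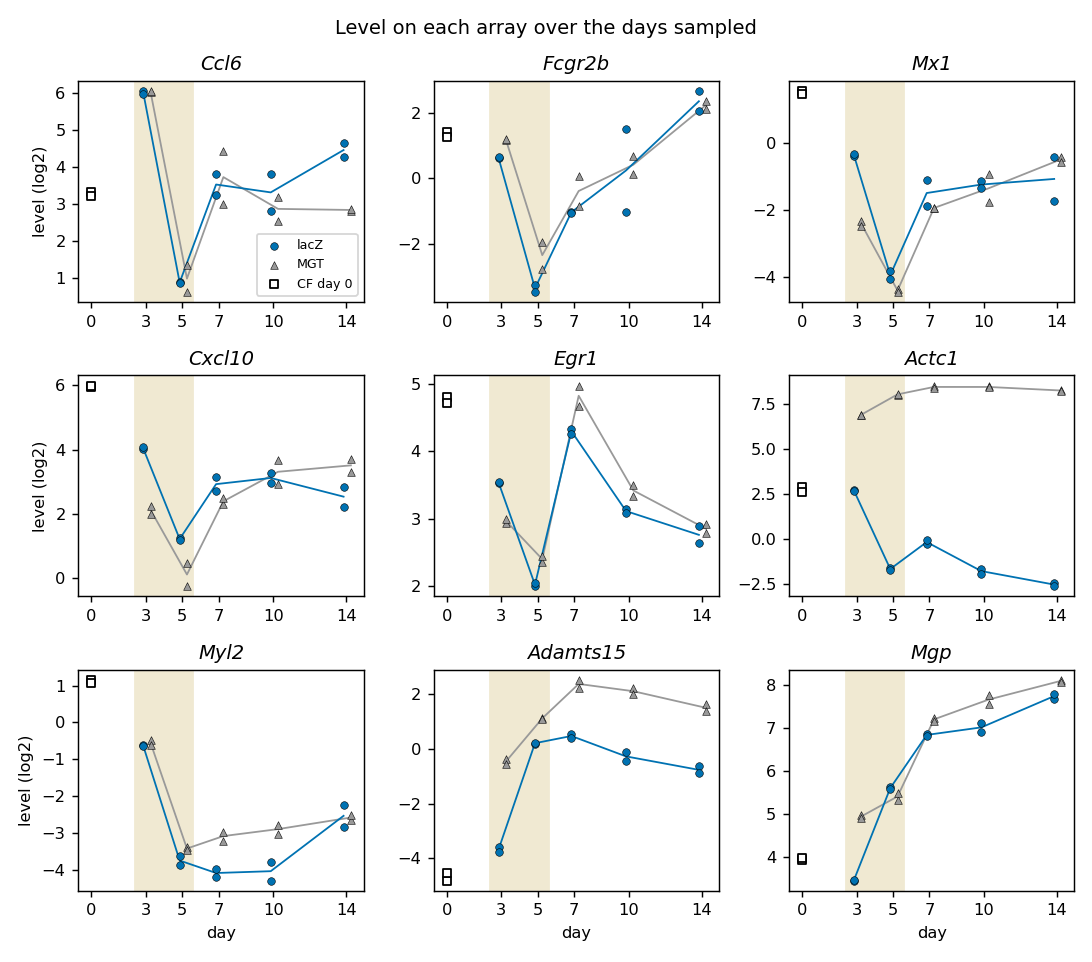
Levels (log2) of 9 genes on each array by day, with circles for lacZ cultures, triangles for MGT cultures and squares for day 0 fibroblasts. Lines join the group means and the shaded band spans days 3 to 5. Ccl6, Fcgr2b, Mx1, Cxcl10 and Egr1 are lower at day 5 than on the days before and after in lacZ cultures, Actc1 and Myl2 fall in lacZ cultures while Actc1 does not in MGT cultures, and Adamts15 and Mgp rise. Days 7 to 14 and day 0 were hybridised on other slides.

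Many sarcomere genes fell in the lacZ cultures. The summed level of their list, in which the brightest probes weigh most, changed little. It was 7.59 and 7.63 at day 5 against 7.75 and 7.73 at day 3. Of 28 sarcomere genes measured 18 were lower and 1 higher (median -0.85), against 2 lower and 15 higher in MGT cultures (median 0.64). The difference of the steps was lower in lacZ for 16 members and higher for 0. Of the 28, 20 were above background on all 4 lacZ arrays, and when only genes of that kind were fitted 13 of 20 were lower. Actc1, cardiac alpha actin (probe at chr2:113873064-113873123 of mm9), had -1.62 and -1.70 on the day 5 lacZ arrays against 2.72 and 2.68 on the day 3 lacZ arrays (20.5-fold lower, adjusted p = 2.81e-10). Myh6, the alpha myosin heavy chain whose promoter drives the reporter of these mice, had -1.95 and -1.83 against 2.15 and 2.17 (16.5-fold lower, adjusted p = 4.80e-09). That value rests on 1 of 2 probes of Myh6. The other had a difference of -0.76 and was not called, the mean of both gave -2.41 and the deposited table gave -2.17. At day 0 the same genes had 2.87 and 2.61 and 2.24 and 2.18, so that the day 3 lacZ cultures stood near the day 0 cells, which lie on another slide. In MGT cultures Actc1 had 7.98 and 8.08 at day 5 against 6.89 and 6.90 at day 3, and Myh6 had 3.23 and 2.99 against 2.41 and 2.20.

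The ventricular light chains behaved differently from these. Myl2 had -3.84 and -3.62 at day 5 against -0.61 and -0.65 at day 3 in lacZ cultures (8.59-fold lower, adjusted p = 4.55e-07), and -3.38 and -3.44 against -0.48 and -0.61 in MGT cultures. The difference of the steps was -0.24 (SE 0.27, adjusted p = 0.711). Myl3 had -3.22 and -3.68 against -0.50 and -0.68 in lacZ cultures (7.24-fold lower) and fell in MGT cultures too (difference -2.61). At day 0 these genes had 1.15 and 1.07 and 1.41 and 1.31, above every lacZ day sampled later. Csrp3, muscle LIM protein, and Actn2, sarcomeric alpha actinin, were not well above background at day 5 in lacZ cultures and were measured at day 3, at least 1.53-fold and 2.26-fold lower, and Csrp3 rose in MGT cultures (difference 2.47). Of the 4 probes of Ttn, titin, 2 were called higher and 1 lower, so its direction is unsettled. Tnnt2, cardiac troponin T, did not follow the others, with 5.49 and 5.61 against 5.50 and 5.42 (adjusted p = 0.606), and the small heat shock gene Cryab was the 1 member that rose, with 5.88 and 5.89 against 5.09 and 5.05 (adjusted p = 4.93e-05). Among 24 genes of cardiac excitation and calcium handling 6 fell and 1 rose (median 0.04). The summed level of that list was 6.44 and 6.45 at day 5 against 6.27 and 6.23 at day 3. Sln, sarcolipin, and Ryr2, the calcium release channel, were at background at day 5 in lacZ cultures, with day 3 levels of -3.21 and -3.40 and -4.93 and -4.88, and Sln rose in MGT cultures (3.19) while Ryr2 did not pass there (0.69, adjusted p = 0.106). The lacZ call of Ryr2 was lost in 4 of 19 other settings. Sln was at least 2.39-fold lower. Of 21 cardiac transcription factors 4 rose and 5 fell (median 0.15). Ankrd1, a stress-responsive regulator of muscle genes, was 2.04-fold lower, with 5.67 and 5.71 against 6.73 and 6.71 (adjusted p = 1.37e-05).

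Immediate early genes, the first targets of growth factor and stress signals, were lower at day 5. Of 28 measured 23 fell and 0 rose (median -0.64), and in MGT cultures 13 fell and 1 rose (median -0.34). Egr1, a zinc finger factor, had 2.0 and 2.05 at day 5 against 3.53 and 3.55 at day 3 (2.86-fold lower, adjusted p = 9.49e-07). Fos, a subunit of the AP-1 dimer, had -1.85 and -1.82 against -0.54 and -0.49 (2.50-fold lower), and Fosl1, its relative, had -1.33 and -1.30 against 0.42 and 0.50 (3.41-fold lower, adjusted p = 3.21e-07). Myc, the growth regulator, had 0.69 and 0.69 against 2.24 and 2.29 (2.97-fold lower, adjusted p = 5.01e-06). Egr2, of the same family as Egr1, was 3.37-fold lower (adjusted p = 1.29e-06), and Egr4 was at background at day 5 and at least 2.52-fold lower. Egr1 was higher again at day 7, at 4.34 and 4.26, and so was Fos, at 0.57 and 0.48, on arrays of another slide. The difference of the steps was called lower in lacZ for 9 members and higher for 0. Among 22 cyclin kinase inhibitors and p53 targets 7 rose and 4 fell (median 0.01). There Plk2, a kinase induced by p53, was 3.27-fold lower, with 1.41 and 1.39 against 3.09 and 3.13 (adjusted p = 8.30e-09).

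Genes of amino acid stress and ribosome making fell with them. Of 24 Atf4 targets 18 were lower and 0 higher (median -0.54), and in MGT cultures 20 and 0 (median -0.96). Fgf21, a stress hormone, had -2.47 and -2.50 at day 5 against -0.70 and -0.70 at day 3 (3.44-fold lower, adjusted p = 4.10e-06). Cth, an enzyme of cysteine synthesis, had 0.24 and 0.25 against 1.74 and 1.67 (2.74-fold lower, adjusted p = 2.53e-06), and Trib3, a pseudokinase, had 5.20 and 5.21 against 6.11 and 6.06 (1.84-fold lower). Atf4 itself had a difference of -0.43 (adjusted p = 0.0128), and Ddit3 did not pass (-0.05). The difference of the steps was higher in lacZ for 10 members, where the MGT step was the larger fall. Of 22 ribosome biogenesis genes 16 fell and 0 rose (median -0.40), against 17 and 0 in MGT cultures (median -0.54). Nop56, a core protein of the particles that methylate ribosomal RNA, had 4.2 and 4.23 against 4.98 and 5.02 in lacZ cultures (1.72-fold lower, adjusted p = 2.16e-05). By contrast, of 33 genes for the ribosomal proteins themselves 0 passed in either direction in lacZ cultures (median -0.05), and 8 fell in MGT cultures (median -0.16). Of 37 oxidative phosphorylation genes 1 rose and 2 fell in lacZ cultures (median 0.04). The unfolded protein response list, whose signal meets Atf4 from another side, had 2 of 18 higher and 3 lower (median 0.07). Of 16 heat shock and chaperone genes 5 rose and 1 fell (median 0.11), among them Hspa1a (0.65) and Hspb1 (0.54) upward and the mitochondrial chaperonin Hspd1 (-0.48) downward.

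Some genes of mitosis were higher. Of 30 genes of G2 and mitosis 7 were higher and 0 lower (median 0.28), a share of 23.3% against 14.1% of all genes. The other 23 had no call, and the count of higher genes ran from 2 to 24 over the settings tried. In MGT cultures 1 of the 30 rose and 0 fell (median -0.03). Prc1, which bundles the spindle midzone, had 3.12 and 3.12 at day 5 against 2.66 and 2.65 at day 3 (1.38-fold, adjusted p = 0.00179), and Cdc20, an activator of the anaphase-promoting complex, had 4.04 and 4.04 against 3.68 and 3.59 (adjusted p = 0.00430). Of the 30 genes 25 had their highest mean of the 6 sampled days at day 5 in lacZ cultures, where 2145 of 17946 genes did. In the 36 genes of G1, S and replication 4 rose and 1 fell (median -0.03). The Nrf2 and oxidative stress list had 11 of 24 higher and 3 lower (median 0.31). Nqo1, a quinone reductase, had -0.01 and -0.02 against -1.04 and -0.95 (1.97-fold, adjusted p = 5.85e-05), and the metallothioneins Mt1 and Mt2 had differences of 0.74 and 0.77. Its cystine carrier Slc7a11 fell (-1.40), and that gene is also in the Atf4 list. Of 25 autophagy and lysosome genes 8 rose and 0 fell (median 0.10), with differences of 0.53 for Gabarapl1 and 0.48 for Map1lc3b, which coat the autophagosome. In Ctsa of that list, a lysosomal protease, the day 5 arrays disagree at 3.26 and 7.62, against 7.51 and 7.59 at day 3.

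Secreted growth factors and the pathways they feed held calls in both directions, where 14.1% of all genes were higher and 15.6% lower. Of 33 growth factors and receptors 5 (15.2%) rose and 11 (33.3%) fell (median -0.12). Ereg, epiregulin, a ligand of the EGF receptor, had 1.94 and 1.93 at day 5 against 3.15 and 3.13 at day 3 (2.31-fold lower, adjusted p = 1.15e-06), and its relative Areg was at background at day 5 and at least 2.21-fold lower. Ptn, pleiotrophin, had 1.92 and 1.69 against 0.54 and 0.46 (2.48-fold, adjusted p = 0.00210). In the Notch pathway 5 of 16 genes rose and 6 fell (median -0.19), with Heyl and Notch3 upward and the ligand Dll1 at background at day 5, with -4.82 and -5.23 at day 3. In the Wnt pathway 8 of 28 (28.6%) rose and 4 (14.3%) fell (median 0.15). Rspo1, which amplifies Wnt signals, had 1.27 and 1.25 against 0.13 and 0.06 (2.25-fold, adjusted p = 1.80e-05), and the ligand Wnt4 was 2.51-fold higher (adjusted p = 0.000941). Of 17 IGF ligands and binding proteins 4 rose and 5 fell (median 0.13). Beside Igfbp5, Igfbp6 rose (1.58 and 1.59 against 0.38 and 0.39, adjusted p = 0.000101), while Igfbp3 fell (1.35 and 1.33 against 2.28 and 2.39, adjusted p = 0.000832).

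Matrix proteases other than Adamts15 were lower where they changed most. Of 26 proteases and inhibitors 6 rose and 9 fell (median -0.05). Mmp3, stromelysin, had 2.13 and 2.20 at day 5 against 4.68 and 4.67 at day 3 (5.69-fold lower, adjusted p = 3.65e-05), and Mmp13, a collagenase, had -4.08 and -3.61 against -2.02 and -1.99 (3.57-fold lower). Both also stand in the list of secreted genes linked to senescence, of which 13 of 20 fell and 3 rose (median -0.73). Of 19 complement and acute phase genes 13 fell and 2 rose in lacZ cultures (median -0.72), against 17 and 0 in MGT cultures (median -1.68). Apart from the C1q subunits, Lcn2, lipocalin 2, an iron-sequestering defence protein, had 0.55 and 0.62 against 2.65 and 2.60 (4.11-fold lower, adjusted p = 2.96e-06). Of 18 antigen presentation genes 2 rose and 5 fell (median -0.10), among them Cd74, the invariant chain (-0.99, adjusted p = 0.0112, lost in 2 of 21 other settings). In collagen processing 6 of 20 genes rose and 1 fell (median 0.18), the fall being that of the prolyl hydroxylase P3h2 (-0.78).

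Metabolic lists held calls in both directions, where 14.1% of all genes were higher and 15.6% lower. Of 26 cholesterol genes 2 (7.7%) rose and 5 (19.2%) fell (median -0.06). Of 23 glycolysis genes 3 (13.0%) rose and 4 (17.4%) fell (median -0.06), near the shares of all genes. Of 19 hypoxia genes 1 (5.3%) rose and 6 (31.6%) fell (median -0.18). Hk2, hexokinase 2, had 1.88 and 1.85 at day 5 against 3.13 and 3.16 at day 3 (2.42-fold lower, adjusted p = 1.09e-05), and Slc2a4, the glucose carrier of muscle and fat, had -2.15 and -2.12 against -0.85 and -0.76 (2.51-fold lower). In the list of fatty acid synthesis and storage 4 of 24 rose and 8 fell (median -0.18). Fabp4, a fatty acid carrier of fat cells, capillaries and macrophages, had 0.61 and 0.53 against 2.86 and 2.86 (4.89-fold lower, adjusted p = 7.36e-07), and the uptake receptor Cd36 had -1.85 and -1.94 against 0.29 and 0.21 (4.43-fold lower). Of 20 glucocorticoid targets 5 rose and 8 fell (median 0.02). Errfi1, a feedback inhibitor of the EGF receptor, was 2.44-fold lower (adjusted p = 5.52e-08), and Pdk4, which restrains pyruvate oxidation, was 2.25-fold higher (adjusted p = 0.000236). Of 19 clock genes 3 rose and 7 fell (median -0.12). The clock output Dbp had 2.88 and 2.95 against 1.95 and 1.94 (1.96-fold, adjusted p = 2.66e-06), and Nfil3, its antagonist at the same sites, had 3.18 and 3.19 against 4.24 and 4.25 (2.08-fold lower). The hour of harvest was not analysed here.

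Markers of the other cells of the preparation moved in both directions. Of 12 epicardial and mesothelial markers 7 were higher and 1 lower (median 0.93), against 3 and 3 in MGT cultures (median 0.13). Msln, mesothelin, had 3.25 and 3.25 at day 5 against 1.95 and 2.03 at day 3 (2.4-fold, adjusted p = 9.07e-05), and Upk3b, an uroplakin, had 0.70 and 0.77 against -0.67 and -0.54 (2.54-fold, adjusted p = 7.03e-06). Wt1, the transcription factor of the epicardium, rose by 0.37 (adjusted p = 0.00512), while the keratin Krt19 was 2.73-fold lower, with -1.69 and -1.50 against -0.14 and -0.15. The summed level of the list was 5.62 and 5.63 at day 5 against 5.18 and 5.19 at day 3. Of 16 endothelial markers 7 fell and 1 rose (median -0.91), against 9 and 0 in MGT cultures (median -1.28). The summed level in lacZ cultures was 5.54 and 5.54 against 6.08 and 6.09. Cldn5, the tight junction gene of endothelium, was at least 4.86-fold lower, and Robo4 had -1.75 and -1.62 against 0.23 and 0.25 (adjusted p = 0.00288). The defining adhesion genes Cdh5 and Pecam1 had differences of -1.25 (adjusted p = 0.122) and -0.28 (adjusted p = 0.0456), and Tek, the angiopoietin receptor, rose by 0.99. The endothelial count ran from 3 to 14 lower over the settings tried. The glial gene S100b was 2.32-fold higher (adjusted p = 4.58e-05), while Sox10 of the same list did not pass. Of 7 pericyte markers 2 rose and 2 fell (median 0.23). The lymphocyte list had 1 member higher and 1 lower of 8, and 4 of the 8 were above background on none of the 4 arrays. The red cell list had 1 higher and 0 lower of 6. Of these 6, 3 were above background on none of the 4 arrays and 0 on all 4, so that call rests on no level measured on both days.

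The step of the lacZ cultures was next tested against that of the MGT cultures. This test set lacZ against MGT on the same slide and across the same rows. Across genes 748 steps (4.14%) were higher in lacZ than in MGT and 732 (4.05%) were lower. The MGT step alone had 2425 genes higher and 2537 lower of 18056. Across 18055 genes the steps had a Pearson correlation of 0.56, given as a description, since they share a slide and its rows.

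Of the steps that were lower in lacZ, those of Actc1 and Myh6 were the largest among genes above background on all 8 arrays, at -5.49 (SE 0.16, adjusted p = 1.20e-09) and -4.85 (SE 0.20, adjusted p = 3.76e-08). Akap5, a scaffold for protein kinase A, had -0.40 and -0.52 at day 5 and -0.28 and -0.22 at day 3 in lacZ cultures, which did not pass (adjusted p = 0.238). In MGT cultures it had 2.0 and 1.90 against -0.34 and -0.43, so the MGT cultures were the ones that changed. Myh8, a perinatal skeletal myosin, had -2.08 and -2.15 against -0.08 and -0.08 in lacZ cultures and 3.45 and 3.40 against 2.96 and 2.96 in MGT cultures, where the step did not pass (adjusted p = 0.0639). A second probe of Myh8 had a lacZ difference of 0.75 and was not called, and the mean of both probes gave -0.64. Bfsp2, a filament gene of the lens, fell in lacZ cultures (-3.74 and -3.61 against -0.92 and -0.94), where the MGT cultures were low on both days (-3.81 and -3.92 against -3.40 and -3.61). Krt13, a keratin, did not pass in lacZ cultures (-0.23, adjusted p = 0.713) and rose in MGT cultures (2.36).

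Of the steps that were higher in lacZ, Cxcl5, a neutrophil attractant, had 3.48 and 3.46 at day 5 against 4.73 and 4.68 at day 3 in lacZ cultures, and -0.84 and -1.36 against 3.52 and 3.77 in MGT cultures. It fell in both, by less in lacZ (difference of the steps 3.51, SE 0.34, adjusted p = 6.13e-05). Vnn1, a pantetheinase, had 0.47 and 0.46 against -1.39 and -1.41 in lacZ cultures and 0.55 and 0.48 against 1.43 and 1.55 in MGT cultures. The cultures lay apart at day 3 and within 0.1 of each other at day 5. Gsta3, a glutathione transferase, and Serpina3n, a secreted protease inhibitor, rose in lacZ cultures and fell in MGT cultures, with steps of 0.80 and 0.98 in lacZ against -1.82 and -1.49 in MGT. The lacZ rise of Gsta3 lost its call in 4 of 21 other settings (adjusted p up to 0.0556). Gdpd2, a phosphodiesterase, did likewise (0.65 in lacZ, -1.79 in MGT). Dpp4, a surface peptidase of fibroblast progenitors, did not pass in lacZ cultures (-0.27 and -0.28 against -0.24 and -0.18) and fell in MGT cultures (-4.45 and -4.64 against -1.83 and -2.30).

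Matrix genes often differed between the steps. Of the fibroblast identity list 16 of 26 steps were higher in lacZ than in MGT and 0 lower, and of the matrix glycoproteins 15 were higher and 2 lower. Fbln1, Col6a1, Col6a2, the collagen processing gene Pcolce2 and the crosslinking enzyme gene Lox were each called higher in lacZ and lower in MGT cultures. Their lacZ steps lay between 0.70 for Lox and 1.18 for Col6a2, and their MGT steps between -0.60 for Col6a1 and -0.27 for Lox. Thbs4, thrombospondin 4, went the other way, at background at day 5 in lacZ cultures and 3.14 and 3.15 at day 5 against 1.53 and 1.53 at day 3 in MGT cultures. Adamts15, Scg2 and Igfbp5 rose in both, by more in lacZ cultures (differences of the steps 2.30, 1.68 and 1.70, adjusted p = 3.92e-05, 0.000169 and 1.28e-06). Scg2 and Igfbp5 were already at 5.35 and 5.30 and 2.90 and 3.09 in day 3 MGT cultures, above any of the lacZ values of day 5 or day 3.

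**Figure D4:**
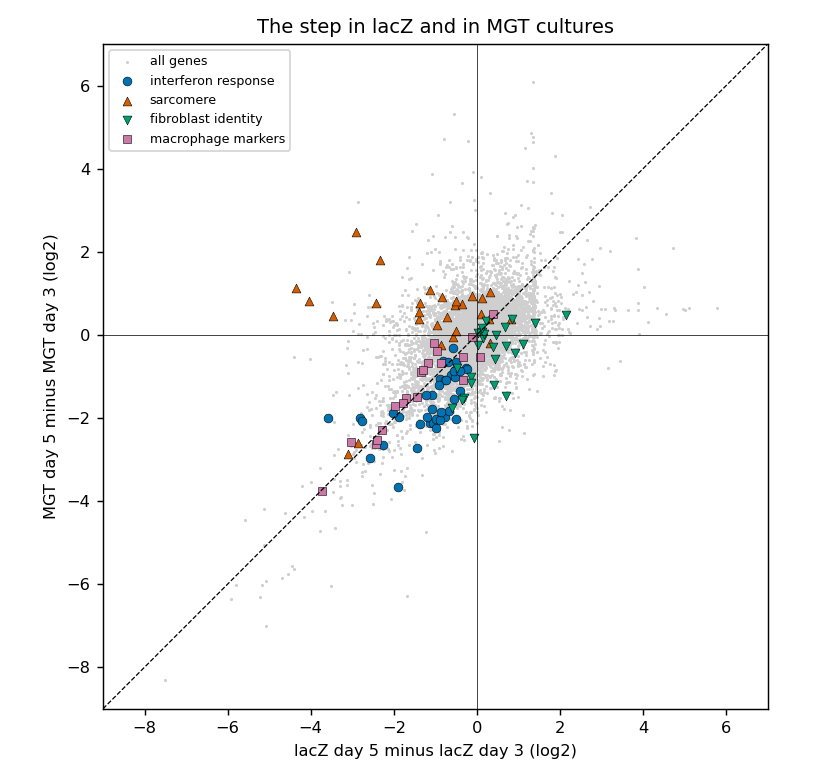
Each point is 1 gene, with its day 5 minus day 3 difference in lacZ cultures (log2, horizontal) and in MGT cultures (log2, vertical). The dashed line marks equal steps. Macrophage genes follow the line, interferon genes lie on or below it, most sarcomere genes lie above it to the left, and fibroblast identity genes lie mostly below it.

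A later step of lacZ control cultures, day 7 to day 10, gave fewer calls. Of 18056 genes 698 (3.87%) were higher and 927 (5.13%) lower at day 10 than at day 7. These arrays share a slide of their own and cross from its first to its second row, as the earlier step does, and share no array with it. The day 10 arrays were farther apart, with 764 genes above background differing by more than 1. The Pearson correlation of the steps across 18055 genes was 0.03. The test of the difference, the early minus the later step, called 1739 genes (9.63%) higher and 1837 (10.2%) lower. The genes that differed most were Ccl12 at -6.88 (SE 0.65, adjusted p = 3.06e-05), Fcgr2b at -5.28 (adjusted p = 0.000934), Cd300lf at -5.10 (adjusted p = 0.000553) and Mrc1, the mannose receptor, at -5.08 (adjusted p = 0.0146). All 4 are myeloid genes that fell in the early step, though Mrc1 lost that call in 5 of 21 other settings (adjusted p up to 0.144), and of the later steps only that of Ccl12 passed, as a rise (1.79, adjusted p = 0.0312). Of the macrophage markers 0 fell and 6 rose in the later step (median 1.10). The interferon list fell in both steps, with 37 of 40 members lower in the early and 30 of 40 in the later step (median -0.76). Among the immediate early genes 7 fell and 0 rose in the later step (median -0.22), and among the Atf4 targets 0 fell and 7 rose (median 0.23).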

How the data were processed

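RNA from mouse cardiac fibroblast cultures was hybridised to 1-colour Agilent arrays, 1 per sample. The deposited scanner files hold, per spot, the processed intensity and flags for spots well above background, saturated or outlying, written by Agilent Feature Extraction 10.7.3.1, per the file headers. Each array was put on the log2 scale relative to the 75th percentile of its non-control spots. Outlier spots were dropped, spots of 1 probe averaged, and a probe kept if flagged well above background in at least 1 group on both of its arrays (38800 kept, 16881 left out). A gene is its probe with the highest mean, and of 4718 genes with several probes 26 had probes called in opposite directions. Probe names are those of the array design. Groups were compared with limma 3.58.1 (R 4.3.3; lmFit and eBayes, 11 group means over 22 arrays, 11 residual degrees of freedom) with Benjamini-Hochberg adjustment over all genes, threshold 0.05. A gene above background in 1 group alone is given as a bound, the mean of the bright group over the higher of the dim signal and the lowest signal well above background on each array. All folds are on this scale, and 2 arrays a group limit the precision.

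A deposited table of intensity normalized between arrays by the authors, on a linear scale with 1 value per gene name, served as an alternative only. The authors' steps for it are not given in the sources used here beyond limma, per the submitters' processing notes. It named 17863 of these genes, its columns had medians of 198 to 206, and its day 5 minus day 3 differences had a Pearson correlation of 0.887 with those used here. Of 3615 genes called from both, 3610 had the same sign.

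Named genes were, by rule, the 14 largest rises and falls, the 4 largest bounds each way, the 6 largest differences each way between the lacZ and MGT steps, the 4 largest between the early and the later lacZ step, up to 4 members of each list by size, and the transgene factors. Other list members are named after their values were seen, to show members that did not follow the rest. The comparison and the lists were chosen with earlier results of these data known, and no list was tested. Deviations of same-numbered samples from their group means had a correlation of -0.039 between day 5 and day 3. That value shows no sign of pairing by number but cannot exclude it, since noise of single arrays enters these deviations. The fit was also run on simulated data with independent noise on each array. Those data hold no row of the slide and no shared origin of samples, so that run does not bear on either. Alternatives were another background correction, scaling, filter, probe rule, subset of arrays, array weights, a replicate block and leaving out arrays. Promoter motifs were read on both strands from the RefSeq table.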

Additional observations from a re-analysis of the deposited data

Results flagged for a closer look

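Results are given here where the day 3 to 5 step differed between lacZ and MGT cultures by a test of the difference itself, a contrast of 4 group means in limma with Benjamini-Hochberg adjustment. That test called 748 steps higher and 732 lower in lacZ than in MGT. Values are the lacZ step minus the MGT step on the log2 scale, and no cause was tested.

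Of muscle genes, Sln at -6.06, Actc1 at -5.49, Myh6 at -4.85 and Myh8 at -2.50 were called lower in lacZ cultures and not in MGT cultures, while Myl2 and Myl3 fell in both. The values of Myh6 and Myh8 rest on 1 of 2 probes each, and their other probes were not called. For Sln the day 5 lacZ arrays were at background, so its value is no measured difference. Thbs4, also at background in day 5 lacZ cultures, stood at -3.29. Bfsp2 stood at -2.39 through its fall in lacZ cultures. Krt13 at -2.59 and Akap5 at -2.55 were called through their rise in MGT cultures. Pmaip1, which encodes a promoter of cell death induced by p53, fell in lacZ and rose in MGT cultures and stood at -1.29.

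These 5 matrix genes were called higher in lacZ cultures and lower in MGT cultures, and were chosen for that pattern, with differences of 0.97 for Lox, 1.27 for Pcolce2, 1.36 for Fbln1, 1.48 for Col6a1 and 1.59 for Col6a2. Gdpd2 at 2.44, Serpina3n at 2.47, Gsta3 at 2.62 and Vnn1 at 2.84 did the same. Dpp4 at 2.41 and Cxcl5 at 3.51 fell in MGT cultures, and of these Cxcl5 fell in lacZ cultures too.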

How the results depend on the processing

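The counts of calls moved with the arrays in the fit, the background correction and the filter. Of 203 named genes 174 were called, 130 of these passed with the same sign in all 21 other settings or those of them that were run, 44 lost the call in at least 1, and 0 of the 174 turned sign. Among named genes with no call, Mef2c, Ctsa, Col8a2, Krt13 and Cd4 crossed 0 in at least 1 setting. For day 5 against day 3, 2540 genes higher became 1653 with normexp background correction, 4326 with no filter, 4013 with only the 4 arrays compared, 3929 with the arrays of the first slide, 1178 with only lacZ arrays and 5184 with array weights, and 2809 lower became 1477 with only lacZ arrays and 4976 with array weights. Leaving out 1 array left 1445 to 1750 higher and 1762 to 1870 lower. For the lacZ minus the MGT step, 748 higher and 732 lower became 438 and 397 with normexp, 1463 and 1469 with only the arrays compared, which are those of the first slide, and 2000 and 2074 with array weights. Leaving out 1 array left 464 to 581 and 412 to 545. For the early minus the later lacZ step, 1739 higher became 968 with normexp, 1122 with the deposited table and 518 with only lacZ arrays, and 1837 lower became 1141 with only the arrays compared and 661 with only lacZ arrays. Leaving out 1 array left 1092 to 2028 and 1242 to 2101. Chosen after seeing the data, fits without the day 14 lacZ arrays gave 1137 and 1104 for the lacZ minus the MGT step, and fits without the day 10 and day 14 lacZ arrays gave 3960 higher for day 5 against day 3 and 1547 and 1489 for the difference of the steps. The replicate block gave 2529 higher and 2795 lower for day 5 against day 3. It gave 735 and 730 for the lacZ minus the MGT step and 1713 and 1831 for the early minus the later step. Same-numbered samples are not known to share more than a number. The cause of these shifts was not tested. Only genes above background on all 4 arrays, also chosen after seeing the data, gave 2516 higher and 2405 lower for day 5 against day 3.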
